A study of Homo sapiens with 6 samples.

Results

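The genes described here code for 5 subunits of Elongator (ELP2 to ELP6), its partner KTI12, and the enzymes that finish the modified wobble uridine of tRNA (CTU1, CTU2 and ALKBH8). They were chosen by name for this role, at a time when earlier results of these data were known, and all 9 were found among the 58219 genes counted and passed the low-count filter. The cells were U2OS, a human osteosarcoma line, with 3 libraries that carried a scramble shRNA as control and 3 that carried an shRNA against E4F1, a zinc finger transcription factor. Both groups went through 24 h of infection and 48 h of puromycin selection before RNA was taken, at 72 h, and the design text speaks of 3 independent pools. With a single control hairpin and a single E4F1 hairpin named, effects of a hairpin other than on its target cannot be told apart from those of E4F1 loss. All counts are of polyadenylated RNA, so the tRNAs themselves and their modifications were not measured.

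Elongator is a large complex that acts on the uridine at the first anticodon position of a set of tRNAs, the base that pairs with the last letter of the codon. It attaches a carboxymethyl group to that uridine, which ALKBH8 with TRMT112 then methylates, and the CTU1-CTU2 thiolase exchanges an oxygen of the base for sulfur. The finished base helps the ribosome to read codons that end in A or G, and loss of the enzymes slows reading of such codons. ELP3, the subunit that carries out the chemistry, has been named in earlier work as a target of E4F1.

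Reads in genes came to 14947085 to 16892139 per library. E4F1 mRNA was at 15.6, 17.7 and 19.1 CPM (read counts scaled to library size, with TMM) in control and 3.18, 3.15 and 2.502 CPM in knockdown libraries, so every knockdown library lay under every control. The marker values and the cell cycle score that follow were scaled to library totals only, without TMM. Of 10 mesenchymal markers, 8 were above 1 CPM on average, with COL1A2 below that and TWIST1 at 0 reads. The sum of the 10 was 6654 to 6822 CPM in control and 6085 to 6152 CPM in E4F1 shRNA libraries. The 6 blood markers summed to at most 3.09 CPM and the 5 endothelial markers to at most 4.21 CPM, while the 6 epithelial markers summed to 20.8 to 28.1 CPM. Control library 2 lay nearest to the E4F1 shRNA libraries on the first principal component (−9.85, against −20.9 and −31.1 in controls 1 and 3 and 17.5 to 22.7 after knockdown). A cell cycle score, the mean log2 CPM of 53 replication and mitosis genes relative to the 6 libraries, was −0.173, 0.0337 and −0.296 in control and 0.171, 0.176 and 0.088 in knockdown libraries. The score did not overlap between the groups, so with 6 libraries its part and that of the shRNA can hardly be told apart. A call lost with the score in the fit cannot be assigned to either.

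Of the 9 genes, ELP3 and CTU1 fell and ELP4 and ALKBH8 rose after the E4F1 shRNA (edgeR quasi-likelihood test, adjusted p under 0.05 over all 15765 genes tested). ELP3 fell by 36.9% and CTU1 fell by 32.6%, while ELP4 was 21.4% higher and ALKBH8 17.1% higher. The other 5 genes, ELP2, ELP5, ELP6, KTI12 and CTU2, did not pass. Among all genes tested, 28.9% passed, 14.4% lower and 14.4% higher, so the counts of 2 of 9 in each direction are of single genes beside a large background. The median log2 fold change of the 9 genes was −0.03, against −0.01 over all genes tested. The groups did not overlap for 5 of the 9, the 4 that passed and ELP5, nor for 41.8% of all genes.

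**Figure D1:**
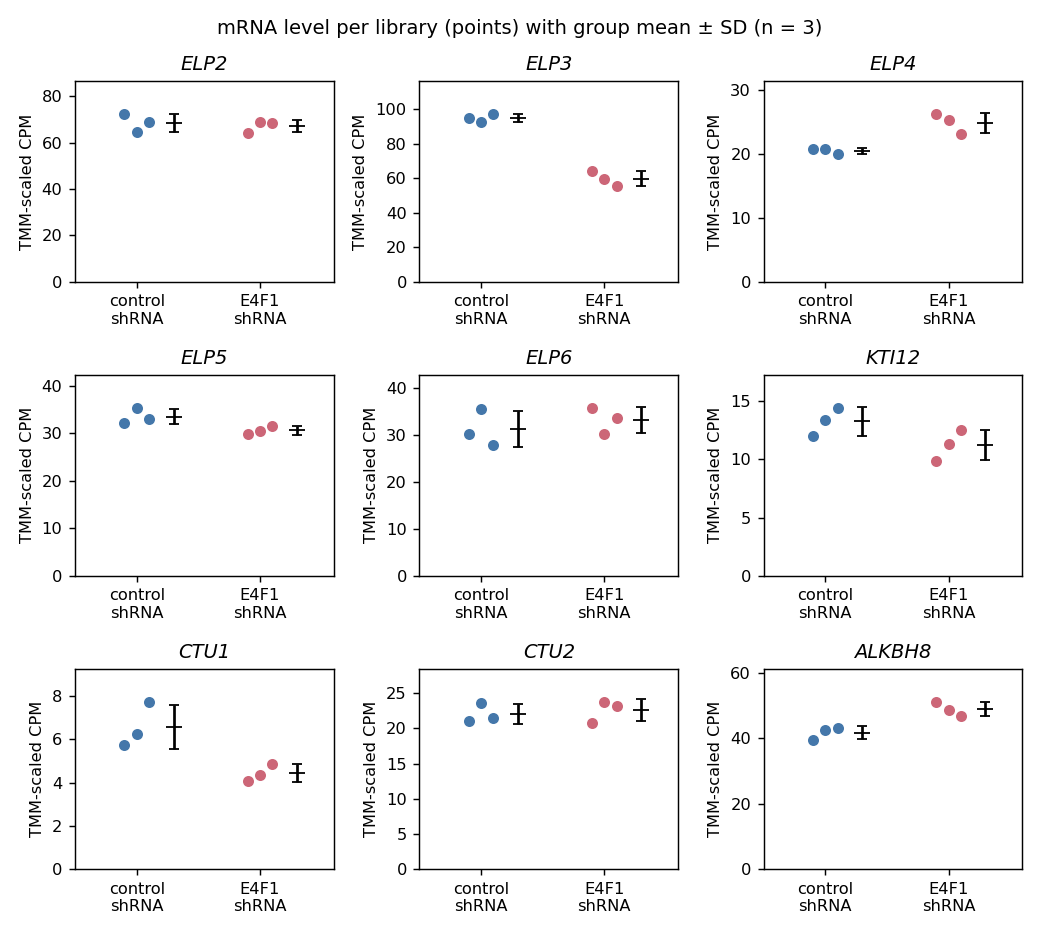
TMM-scaled CPM of the 9 genes in each of the 6 libraries (points, 3 control shRNA and 3 E4F1 shRNA), with the group mean and SD (bar, n = 3) and every axis starting at 0. ELP3 and CTU1 are lower and ELP4 and ALKBH8 higher in each E4F1 shRNA library than in each control library.

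ELP3 holds the radical enzyme domain and the acetyltransferase domain of Elongator. It lies on chromosome 8 (ENSG00000134014, GRCh38, 28089673 to 28191156, plus strand). Control libraries had 1418, 1494 and 1506 reads of it and knockdown libraries 1026, 1001 and 911. These were 94.9, 92.4 and 96.8 CPM in control cells and 64.0, 59.5 and 55.6 CPM after knockdown. The 2 groups were far apart: the lowest control stood at 92.4 CPM and the highest knockdown library at 64.0 CPM. The mean went from 94.7 ± 2.195 to 59.7 ± 4.21 CPM (SD, n = 3 each). On the log2 scale this is −0.67 with SE 0.06, at an edgeR adjusted p = 7.64e-07. By p-value 89 of the 15765 genes ranked before it, while by size 3.76% of the genes had a larger fall. The fall passed in each of 17 alternative analyses, with log2 values from −0.71 to −0.61, among them −0.67 without control library 2, −0.66 with a correction for GC content and −0.65 with the cell cycle score in the fit. In bulk RNA, fewer cells that express a gene and less RNA of it per cell cannot be told apart.

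Of the other 4 subunits none fell by the test, and ELP4 rose. ELP2, a scaffold subunit built of WD40 repeats that binds ELP3 (ENSG00000134759, chromosome 18, 36129444 to 36180556, plus strand), had 72.1, 64.4 and 68.8 CPM in control and 64.0, 68.8 and 68.5 CPM in E4F1 shRNA libraries. The groups overlapped, and the log2 fold change was −0.03 with a 95% confidence interval of −0.16 to 0.10 (edgeR adjusted p = 0.769). That interval lies wholly above the interval of ELP3, −0.80 to −0.53, and the difference between the 2 genes was not tested.

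ELP4, ELP5 and ELP6 are related proteins that form a ring, which binds tRNA and docks onto the rest of Elongator. ELP5 (ENSG00000170291, chromosome 17, 7251416 to 7259940, plus strand) had 32.2, 35.3 and 33.1 CPM in control and 29.8, 30.5 and 31.6 CPM in E4F1 shRNA libraries. The groups were apart by a small margin, with 31.6 CPM as the highest knockdown library and 32.2 CPM as the lowest control, and the gene did not pass (log2 −0.13, 95% interval −0.28 to 0.02, edgeR adjusted p = 0.186). ELP6 (ENSG00000163832, chromosome 3, 47495640 to 47513761, minus strand) had 30.3, 35.4 and 28.0 CPM in control and 35.7, 30.3 and 33.7 CPM in E4F1 shRNA libraries. Its groups overlapped over most of their range (log2 0.09, 95% interval −0.10 to 0.28, edgeR adjusted p = 0.506).

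ELP4, the third protein of the ring, was the subunit that rose. It lies on chromosome 11 (ENSG00000109911, 31509700 to 31790328, plus strand) and had 309, 336 and 310 reads in control and 419, 426 and 378 reads in knockdown libraries, which is 20.7, 20.8 and 19.9 against 26.1, 25.3 and 23.1 CPM. Every knockdown library lay above every control (log2 0.28, SE 0.08, edgeR adjusted p = 0.0156). The rise rested on the strand-specific counts. With counts that ignore strand the log2 value was 0.02 (adjusted p = 0.869). Reads on the opposite strand within ELP4 exons went the other way, with 111, 109 and 158 in control and 71, 66 and 68 in E4F1 shRNA libraries. On that strand a protein-coding gene shares 19.2% and an antisense RNA 0.388% of the annotated exon bases of ELP4, and which transcripts these reads came from was not tested. The call was also lost with the GC correction (log2 0.15, adjusted p = 0.164), with the cell cycle score in the fit (0.19, 0.519), without E4F1 shRNA library 1 (0.25, 0.0680) and without library 2 of that group (0.27, 0.0647).

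The ratio of ELP3 to the other 4 subunits analysed here can be read per library, and Elongator subunits other than these 5 are not part of it. ELP3 CPM over the mean CPM of ELP2, ELP4, ELP5 and ELP6 was 2.44, 2.37 and 2.58 in control and 1.65, 1.54 and 1.42 in knockdown libraries. The groups were apart, at 2.47 ± 0.108 and 1.53 ± 0.114 (SD, n = 3 each), and no test was made of this ratio. Gene length was not taken out of it, so its size is comparable between libraries only. The 4 subunits do not weigh equally in the mean, with ELP2 at 68.4 CPM in control weighing most and ELP4 at 20.5 least.

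**Figure D2:**
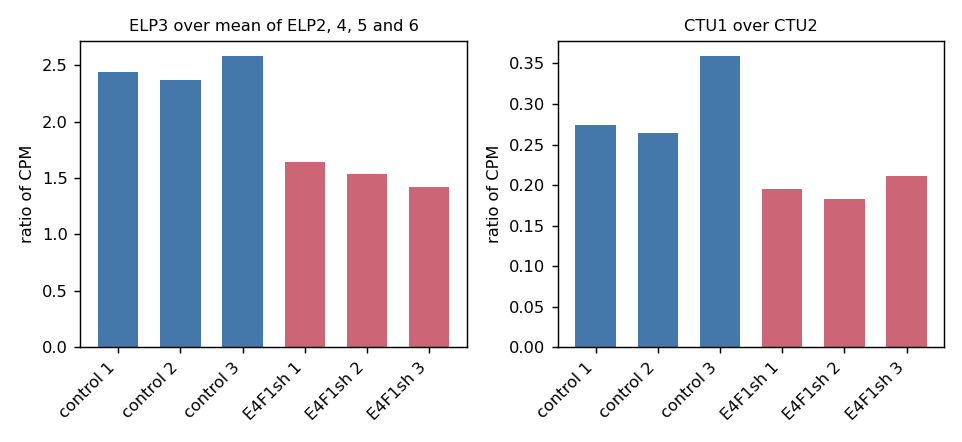
Ratio of CPM in each of the 6 libraries, for ELP3 over the mean of ELP2, ELP4, ELP5 and ELP6 (left) and for CTU1 over CTU2 (right), with bars from 0. Control bars (blue) stand above E4F1 shRNA bars (red) in both panels, from 2.37 to 2.58 against 1.42 to 1.65 and from 0.264 to 0.359 against 0.183 to 0.211.

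KTI12 is an ATP-binding protein that associates with Elongator and is needed for its tRNA function in yeast. The gene (ENSG00000198841, chromosome 1, 52032103 to 52033816, minus strand) had 12.0, 13.4 and 14.4 CPM in control and 9.86, 11.4 and 12.5 CPM in E4F1 shRNA libraries. The groups overlapped slightly and the gene did not pass (log2 −0.24, 95% interval −0.48 to 0.0004, edgeR adjusted p = 0.127). TXNDC12 and another gene model on the same strand share 31.0% and 38.7% of KTI12's bases, and in STAR's gene counting reads shared between genes go to none, so these values rest on the remaining bases.

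CTU1 is the catalytic subunit of the thiolase and CTU2 its partner, and of the pair only CTU1 passed. CTU1 (ENSG00000142544, chromosome 19, 51097606 to 51108370, minus strand) was the least counted of the 9 genes, with 86, 101 and 120 reads in control and 65, 73 and 80 reads in E4F1 shRNA libraries. On the CPM scale these were 5.75, 6.25 and 7.71 against 4.06, 4.34 and 4.88. The groups did not overlap, although the control libraries spread more than the gap between groups (log2 −0.57, SE 0.15, edgeR adjusted p = 0.00981). The call was lost without control library 3 (log2 −0.44, adjusted p = 0.0631) and without E4F1 shRNA library 1 (−0.50, 0.0513). It was also lost with the GC correction (−0.35, 0.0789) and with the cell cycle score in the fit (−0.30, 0.587), and the direction was downward in all 17 alternatives.

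CTU2 (ENSG00000174177, chromosome 16, 88706463 to 88715386, plus strand) had 21.0, 23.6 and 21.5 CPM in control and 20.8, 23.7 and 23.2 CPM in E4F1 shRNA libraries. Its groups overlapped almost completely (log2 0.03, 95% interval −0.15 to 0.21, edgeR adjusted p = 0.801). The interval of CTU1, −0.89 to −0.25, lies wholly below that of CTU2, and the difference between the 2 genes was not tested. CTU1 CPM over CTU2 CPM was 0.274, 0.264 and 0.359 in control and 0.195, 0.183 and 0.211 in E4F1 shRNA libraries, with no overlap and, again, no test.

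ALKBH8 carries a methyltransferase domain that completes the Elongator product and an oxygenase domain that hydroxylates it in some tRNAs. The gene (ENSG00000137760, chromosome 11, 107502726 to 107565746, minus strand) had 39.5, 42.6 and 43.3 CPM in control and 51.1, 48.8 and 46.9 CPM in E4F1 shRNA libraries. All knockdown libraries lay above all controls (log2 0.23, SE 0.07, edgeR adjusted p = 0.0158). The call was lost with the GC correction (0.13, 0.159), with the cell cycle score in the fit (0.21, 0.343), and without control library 1 (0.20, 0.0635), E4F1 shRNA library 1 (0.20, 0.0699) or E4F1 shRNA library 2 (0.23, 0.0538).

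**Figure D3:**
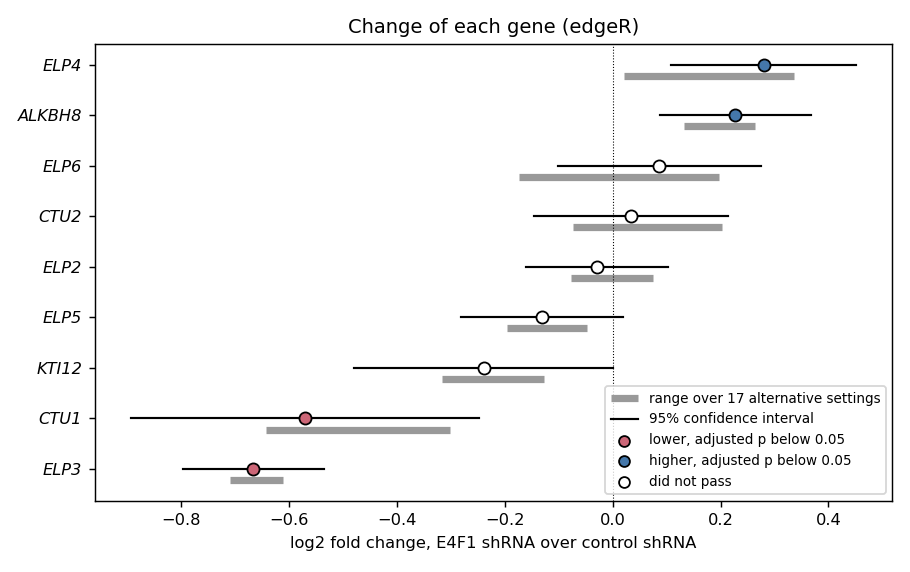
Log2 fold change of each gene, E4F1 shRNA over control shRNA, from edgeR (circle), with its 95% confidence interval (black line) and the range over 17 alternative analyses (grey bar). ELP3 is apart from 0 throughout (−0.71 to −0.61), while the grey bar of CTU1 reaches −0.30 and that of ELP4 reaches 0.02.

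GC content moved with the changes in the whole table and with 3 of the 4 calls here. Among tested genes, the median log2 fold change went from 0.12 in the quintile of genes with the lowest GC content (up to 40.8%) to −0.15 in the quintile with the highest (from 57.3%), and 28.8% of the former but 3.15% of the latter rose. ELP4 (36.5% GC in its longest transcript) and ALKBH8 (39.2%) belong to the lowest quintile, and both rose. CTU1 (68.2%) belongs to the highest quintile, where 25.1% of genes fell. CTU2, in the same quintile (62.9%), had log2 0.03, and 0.20 with the GC correction (adjusted p = 0.0742). ELP3 (48.0%) lies in the middle quintile, whose median was −0.01, and its log2 value was −0.67 without and −0.66 with the correction. The part of GC content, or of the cell cycle score, in these results was not tested.

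**Figure D4:**
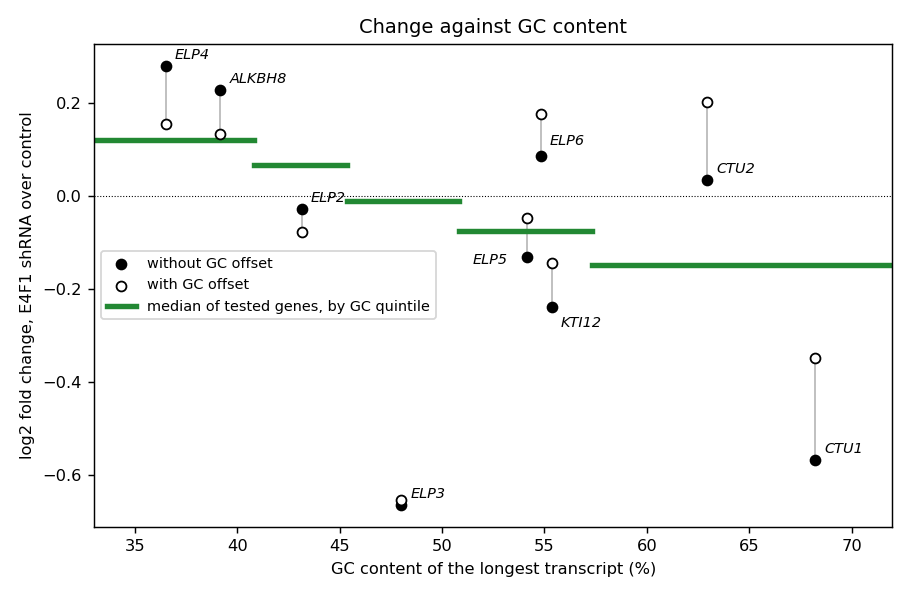
Log2 fold change of the 9 genes against the GC content of the longest transcript in percent, without (filled) and with (open) a GC-content offset, and the median of all tested genes in each quintile of GC content (green bars). The medians go from 0.12 at low to −0.15 at high GC content. ELP4, ALKBH8 and CTU1 move towards 0 with the offset, and ELP3 stays at −0.66.

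Levels can be compared between genes only per length, and the order depended on the length taken. On the scale of CPM per kilobase of merged exons, in control cells, ELP3 stood highest at 17.6 ± 0.407, followed by ELP5 at 12.1 ± 0.571 (SD, n = 3 each). ELP6 at 9.43 ± 1.16 and ALKBH8 at 9.27 ± 0.438 came next and did not differ beyond their spread. KTI12 stood at 7.74 ± 0.711, CTU2 at 6.24 ± 0.396 and ELP2 at 6.18 ± 0.348, the last pair again within their spread. CTU1 (3.15 ± 0.488) and ELP4 (0.749 ± 0.0171) were lowest. After knockdown ELP3 came down to 11.1 ± 0.782 CPM per kilobase, beside ELP5 at 11.1 ± 0.327 and ALKBH8 at 10.9 ± 0.463, a difference smaller than the spread. Per kilobase of the longest transcript, ELP6 was second in control cells (22.3, after ELP3 at 27.4) and first after knockdown (23.7, before ELP3 at 17.3). Of the 1714 exon bases of KTI12, 585 belong to no other gene of the same strand. Per kilobase of these, a length chosen after seeing the data, KTI12 stood at 22.7 ± 2.08 in control and 19.2 ± 2.27 after knockdown. This was above ELP3 per kilobase of merged exons in both groups, which is a length of another kind. Beside ELP3 per kilobase of its longest transcript, KTI12 was lower in control (27.4 for ELP3). After knockdown it differed from ELP3 (17.3) by less than its own SD. ELP4 has 27306 annotated exon bases but a longest transcript of 8164, so its level per length also depends on the choice.

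E4F1 is known to bind DNA at sites like those of the ATF family, with the core TGACGT. RefSeq promoter windows (GRCh38.p14), 250 bases before to 50 after an annotated start, were at hand for 8 of the 9 genes, all but ELP3. The longer forms TGACGTCA and TGACGTAA were searched on both strands. TGACGTCA stood in ELP5 and CTU2, neither of which passed the test, and TGACGTAA in none of the 8. Either form stood in 4.48% of 11400 tested genes with a window. The core TGACGT, which every longer form contains, was in ELP4, ELP5 and CTU2, and in 13.8% of tested genes with a window. The windows of CTU1, ELP2, ELP6, KTI12 and ALKBH8 held no core. Shown are a window of ELP5 and the window of CTU2, which hold the longer form, and that of CTU1, which fell and holds none. Capitals mark the core on either strand, and each sequence is written 5′ to 3′ along the strand of the gene.
ELP5, chr17:7251965-7252264, plus strand: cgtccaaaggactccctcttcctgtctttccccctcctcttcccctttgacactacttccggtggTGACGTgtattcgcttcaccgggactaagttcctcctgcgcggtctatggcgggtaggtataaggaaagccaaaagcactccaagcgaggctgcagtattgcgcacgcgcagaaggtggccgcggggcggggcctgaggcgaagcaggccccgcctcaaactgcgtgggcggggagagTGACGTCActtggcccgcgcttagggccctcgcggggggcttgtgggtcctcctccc
CTU2, chr16:88706253-88706552, plus strand: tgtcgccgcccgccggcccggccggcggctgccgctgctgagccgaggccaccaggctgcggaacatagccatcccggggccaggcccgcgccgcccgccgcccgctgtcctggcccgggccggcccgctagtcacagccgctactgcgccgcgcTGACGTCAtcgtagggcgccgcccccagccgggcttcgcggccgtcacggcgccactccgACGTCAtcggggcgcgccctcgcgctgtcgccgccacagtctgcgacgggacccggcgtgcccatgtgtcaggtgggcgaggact
CTU1, chr19:51108360-51108659, minus strand: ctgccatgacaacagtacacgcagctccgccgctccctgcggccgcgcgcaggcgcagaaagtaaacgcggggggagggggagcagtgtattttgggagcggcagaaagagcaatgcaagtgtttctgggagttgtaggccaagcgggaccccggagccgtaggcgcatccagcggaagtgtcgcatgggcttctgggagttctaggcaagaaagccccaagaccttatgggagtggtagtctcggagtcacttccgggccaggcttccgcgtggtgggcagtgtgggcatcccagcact

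In ELP5 the TGACGTCA match lies at chr17:7252208-7252215, beginning 7 bases before the start used for the window shown. ELP5 and ELP6 have several windows each, and a match in any window counted for the gene. The window of ELP5 at chr17:7251474-7251773 holds no core. In that at chr17:7252176-7252475 the same match begins 218 bases before the start. In CTU2 the match at chr16:88706408-88706415 begins 95 bases before the start used, and a second core on the other strand begins 35 bases before that start. These starts are from RefSeq and differ from the gene starts given above, which are from GENCODE. The second core of CTU2, at chr16:88706468-88706473, lies past the GENCODE start of 88706463. ELP4 holds only the core, at chr11:31509656-31509661, which begins 111 bases before the RefSeq start used for its window and is shown with 10 bases on each side.
ELP4 core: ggctcgggacTGACGTctcagtccta

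For 3 of the 9 genes, the annotation places the start of a gene on the opposite strand within 1000 bases upstream. SLC39A6, a zinc transporter gene that starts 59 bases from ELP2, had 100.4 ± 3.02 CPM in control and 110.2 ± 2.18 CPM in E4F1 shRNA cells (n = 3 each, log2 0.13, edgeR adjusted p = 0.069). IMMP1L, a gene of the inner membrane peptidase of mitochondria 55 bases from ELP4, had 12.8 ± 0.113 and 13.3 ± 0.512 CPM (log2 0.06, edgeR adjusted p = 0.673). RNF166, a ubiquitin ligase gene 42 bases from CTU2, had 11.1 ± 1.70 and 11.3 ± 0.447 CPM (log2 0.03, edgeR adjusted p = 0.885). None of the 3 passed, the neighbour of ELP4 included.

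The heptamer CTTATCT in 3′ untranslated regions was taken from an earlier scan of these data, so its matches are a description and carry no test. In annotated basic transcripts it stood in the 3′ untranslated regions of ELP4 and ELP2, at 2 places each. None of the other 7 genes held it, and of 13086 tested genes with such a region 12.6% did. The longest such region had 6804 bases in ELP4 and 5915 in ELP2, against 166 (CTU2) to 1932 (ALKBH8) in the other 7. The 12.6% was not matched for length, and the part of length in these matches was not tested. ELP4 rose and ELP2 did not pass the test. The sites of ELP4 are on the plus strand at chr11:31650601-31650607 and chr11:31788029-31788035 and belong to different 3′ untranslated regions, with the heptamer in capitals.
ELP4 site A: ctaagaggattCTTATCTacattttaaaa
ELP4 site B: gcagaggaagaCTTATCTgtattgactta

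Around the 9 genes, 45 other genes of tRNA modification were followed by role, all of which passed the low-count filter. Of these, 5 rose and 6 fell, with a median log2 fold change of −0.02, against 28.9% of all genes passing in either direction. CTU1-CTU2 receives its sulfur by a relay in which the desulfurase NFS1 and the sulfurtransferase MPST supply sulfur, MOCS3 activates the carrier URM1, and URM1 delivers it. In this relay 2 of 5 genes fell and none rose, beside 14.4% of all genes tested that fell and 14.4% that rose. MOCS3 had 19.9, 20.3 and 21.6 CPM in control and 16.7, 18.6 and 14.9 CPM in E4F1 shRNA libraries (log2 −0.30, edgeR adjusted p = 0.0235). MPST had 66.6, 66.8 and 69.3 CPM in control and 51.6, 57.6 and 59.1 CPM after knockdown (log2 −0.27, edgeR adjusted p = 0.00481). For both genes every knockdown library lay under every control, while the groups did not overlap for 41.8% of all genes. Both calls were lost with the cell cycle score in the fit (MOCS3 log2 −0.30, edgeR adjusted p = 0.317, and MPST −0.20, 0.297). MOCS3 also lost its call without control library 1 or 3 and without E4F1 shRNA library 1 or 3. URM1 (log2 −0.11), NFS1 (−0.01) and LYRM4 (−0.10), the NFS1 partner, did not pass.

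The partners of Elongator and ALKBH8 did not pass either. DPH3, a small iron protein that donates electrons to ELP3, had log2 0.13 (edgeR adjusted p = 0.142) and TRMT112, the cofactor of ALKBH8, had 0.05 (0.589). Mitochondria modify wobble uridines with their own enzymes, and of these the thiolase gene TRMU rose. It had 47.2, 52.6 and 49.2 CPM in control and 69.1, 65.4 and 65.3 CPM in E4F1 shRNA libraries (log2 0.42, edgeR adjusted p = 0.000103). The groups were well apart. The log2 value was 0.59 with the GC correction, and with the cell cycle score in the fit the call was lost (0.32, adjusted p = 0.0601). TRMU went up while CTU1, the cytosolic enzyme of the same reaction, went down, and the difference between these genes was not tested. The call of CTU1 was lost with the GC correction and with the cell cycle score in the fit. MTO1 (log2 0.07) and GTPBP3 (0.18), which make the other group on the mitochondrial base, did not pass.

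Of 18 genes for other anticodon loop modifications, 2 rose and 1 fell. Over all genes tested 14.4% rose and 14.4% fell, the background for this count and for those of the lists that follow. The cytosine methyltransferase gene NSUN2 had 240.8 ± 3.56 CPM in control and 189.4 ± 12.5 CPM in knockdown cells (SD, n = 3 each), a log2 value of −0.35 at an edgeR adjusted p = 0.000205. TRDMT1, which methylates another anticodon loop cytosine, had 14.7 ± 1.32 and 20.6 ± 0.731 CPM, a log2 value of 0.49 at an edgeR adjusted p = 0.000869. TYW3, an enzyme of wybutosine synthesis, had log2 0.20 (0.0292). Of 7 genes of the KEOPS complex and its pathway, which modifies an adenosine beside the anticodon, OSGEP (log2 0.23, edgeR adjusted p = 0.0148) and TPRKB (0.22, 0.0383) rose and LAGE3 (−0.47, 0.0187) and YRDC (−0.26, 0.0254) fell. With the cell cycle score in the fit the values of TPRKB (−0.02), LAGE3 (0.06) and YRDC (0.01) changed sign. Of 10 genes that methylate the body of tRNA, TRMT61A fell (log2 −0.36, edgeR adjusted p = 0.0311) and none rose. The control and knockdown libraries of TPRKB, LAGE3 and TRMT61A overlapped. With the GC correction TYW3 (log2 0.09, edgeR adjusted p = 0.352), TPRKB (0.13, 0.192), LAGE3 (−0.29, 0.120), YRDC (−0.19, 0.0901) and TRMT61A (−0.18, 0.231) lost their call, and the other 6 of the 11 kept it. NSUN2 and TRDMT1 passed in all 17 alternatives, TRMU and MPST in 16, and the other 7 genes in 9 to 13.

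**Figure D5:**
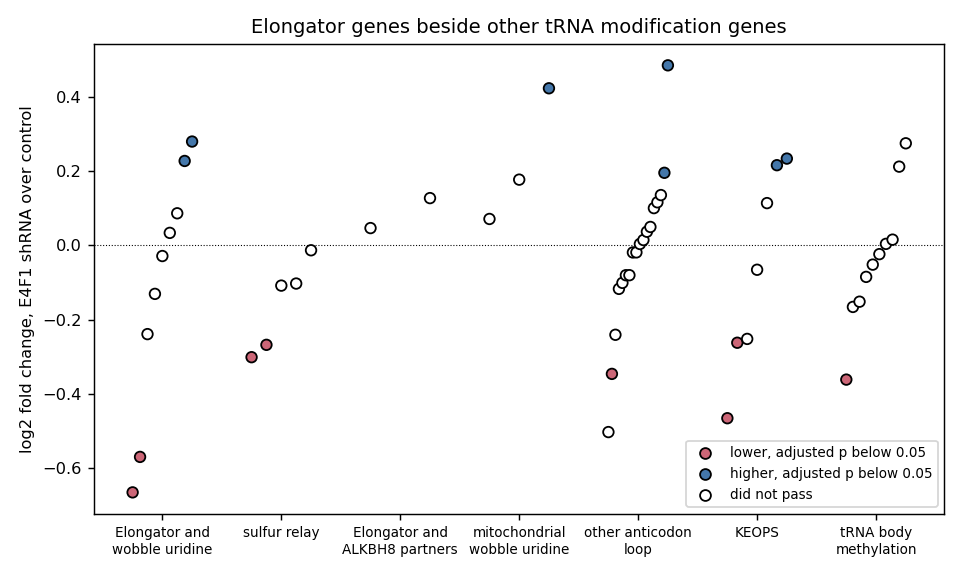
Log2 fold change, E4F1 shRNA over control shRNA, of the 9 Elongator and wobble uridine genes (left) and of 45 other tRNA modification genes by role, with 1 circle per gene sorted by value within a role. Filled circles passed edgeR's test. Values go from −0.67 (ELP3) to 0.49 (TRDMT1), and 3 of the 7 columns (Elongator and wobble uridine, other anticodon loop, KEOPS) have filled circles on both sides of 0.

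The genes whose 6-library profile lay nearest to that of ELP3, by Euclidean distance of log2 CPM centred on each gene's mean among protein-coding genes of at least 3 log2 CPM, were GOLGA7 (distance 0.102, log2 −0.66), PRKAR1A (0.143, −0.56) and CEP290 (0.143, −0.66). GOLGA7 went from 69.9 ± 3.41 to 44.3 ± 2.41 CPM, PRKAR1A from 316.3 ± 8.86 to 213.9 ± 21.4 CPM and CEP290 from 38.3 ± 2.85 to 24.2 ± 1.74 CPM (SD, n = 3 each). Among those nearest to CTU1 were SCARF2 (distance 0.114, log2 −0.61) and NECAB3 (0.165, −0.52). Being chosen for their likeness, these 5 genes are a description and carry no test.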

How the data were processed

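Polyadenylated RNA was sequenced from 6 U2OS libraries. The deposited values are raw read counts, 1 table per library. The submitters' processing notes name bcl2fastq 2.20, STAR 2.5.1b and GRCh38, with an annotation release not given in the sources used here. The reverse-strand counts were used, since the forward-strand column held only 885046 to 977742 reads. Lines that name no gene held 27.1% to 31.7% of each table and were left out. Symbols and coordinates (1-based) came from GENCODE 29, which matched 57881 of 58219 identifiers.

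Counts were tested with edgeR 4.0.16 in R 4.3.3 (filterByExpr, TMM, quasi-likelihood F-test, two-sided, group as the only term, Benjamini-Hochberg over 15765 genes, threshold 0.05). SEs and 95% intervals of log2 fold changes come from that fit. P-values reflect only the spread between the pools, which edgeR estimates for each gene partly from the other genes tested. For a single value 3 against 3 allow no exact permutation p below 0.1. The 17 alternatives used DESeq2 1.42.0, limma 3.58.1 (voom), other scalings and filters, a replicate block, a GC-content offset, both together, unstranded counts, a cell cycle score and leaving out each library.

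The 9 genes, the other tRNA lists, the cell cycle score and the motifs were chosen with earlier results of these data known. Named genes are E4F1, the 9 genes, those of the other lists past the threshold (up to 4 per list), neighbours with a start within 1000 bases on the opposite strand, and the 3 nearest profiles for ELP3 and CTU1. A gene that this rule names is not reported here. Partners in the sulfur relay, of Elongator and ALKBH8 and in mitochondria that did not pass are also named, for their role. The labels do not say that equal numbers pair the groups, so the numbers were not taken as pairs. Deviations of same-numbered libraries from their group means had correlations of 0.00704, 0.0471 and 0.0477. Differently numbered libraries had −0.108 to 0.0770, and these values do not settle whether the numbers pair.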

Additional observations from a re-analysis of the deposited data

How the results depend on the processing

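ELP3 kept its direction and its call in all 17 alternatives, and CTU1, ELP4 and ALKBH8 kept their direction in all and their call in 12, 11 and 11. With the replicate block, 4865 genes passed in the whole table, in place of 4550, and the calls on the 9 genes and on the other tRNA genes (6 lower, 5 higher) were the same in number. With the GC-content offset, alone or with the replicate block, 1 of the 9 genes was lower and 0 higher, in place of 2 and 2. With counts ignoring strand 1 was higher. With the cell cycle score, 741 genes passed in the whole table, 1 of the 9 was lower and 0 higher, and 1 other tRNA gene was lower and 1 higher. That score did not overlap between the groups, so its part and that of the shRNA can hardly be told apart in this fit. The cause of these changes was not tested.

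Leaving out 1 library gave 3031 to 5370 genes in the whole table, 1 to 2 of the 9 genes lower, 0 to 2 higher, and 2 to 7 other tRNA genes lower and 2 to 7 higher. The lowest whole-table count came without E4F1 shRNA library 2.

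Signs turned in values near 0 that had not passed and, with the cell cycle score, in 3 KEOPS genes: TPRKB −0.0173, LAGE3 0.0603, YRDC 0.0149. With that score ELP2 had 0.0748, ELP6 −0.173, CTU2 −0.0740 and RNF166 −0.109. Counts ignoring strand gave CTU2 −0.0491 and RNF166 −0.0349. IMMP1L had −0.0296 with the GC-content offset and −0.0298 with it and the replicate block. Over the fits without 1 library, ELP2 went from −0.0615 to 0.0224, CTU2 from −0.00021 to 0.0983 and RNF166 from −0.0736 to 0.136. Promoter matches were the same in number with only the 250 bases before the start. CTU1, with 65 to 120 reads per library, is the gene of the 9 with the fewest reads and the largest SE.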
